A study of Saccharomyces cerevisiae with 12 samples.

Results

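De novo purine synthesis in Saccharomyces cerevisiae was followed through the RNA of its 10 ADE genes, chosen by name as the enzymes that turn phosphoribosyl pyrophosphate (PRPP) into inosine monophosphate (IMP) and IMP into AMP. They are 10 of the 7126 features with a value in each of 12 RNA-seq libraries. The series compares strains that live without Epl1, Esa1 or both, which are otherwise essential. Esa1 is the catalytic subunit of the NuA4 histone acetyltransferase, Epl1 ties it to the rest of that complex, and Sds3 is a subunit of the Rpd3L histone deacetylase. All strains are labelled MATα and W303 and were grown in SC medium at 24 °C to mid-log phase, and RNA was depleted of rRNA and sequenced strand-specifically.

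There were 4 groups of 3 libraries, described as biological triplicates. The mutant groups are epl1Δ::kanMX sds3Δ::natMX, esa1Δ::HIS3 sds3Δ::natMX, and esa1Δ::HIS3 epl1Δ::kanMX sds3Δ::natMX. HIS3 is named only together with esa1Δ, so its share in a difference cannot be told apart from that of ESA1 loss. Every mutant label thus carries the SDS3 deletion, and no group has that deletion alone, so its share in a difference from WT cannot be told apart from that of the other deletions. The WT label lists ura3-1, trp1-1, his3-11, can1-100, an allele of LEU2, and ade2-1, the last of these in a gene described here. The mutant labels name only the W303 background and the deletions, so the ADE2 allele of the mutant strains is not stated, and expression per gene does not show it. SDS3 kept 36 to 77 reads in every library labelled sds3Δ, against 112 to 158 reads in WT, which goes against that label. The WT libraries were mostly read more deeply. Scaled as described below, mean SDS3 was 58.9%, 63.4% and 65.3% of WT in the groups in the order above. ESA1 had at most 3 reads and EPL1 at most 13 reads in the libraries labelled as lacking them. Scaled in the same way, mean ESA1 was 1.74% of WT in the esa1Δ sds3Δ group and 1.17% in the esa1Δ epl1Δ sds3Δ group. Mean EPL1 was 6.99% of WT in the epl1Δ sds3Δ group and 14.2% in the esa1Δ epl1Δ sds3Δ group, and it was low in WT too (2.91 scaled RPKM). The groups are therefore called by their labels throughout.

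The pathway starts when a ring is built stepwise on PRPP and ends in IMP, the common precursor of AMP and GMP. Its genes are known to be switched on together by the transcription factors Bas1 and Pho2 when adenine is scarce, through binding of the intermediates SAICAR and AICAR, and to be low when adenine is supplied. Bas1 binds a site with the core TGACTC, which is also the core of the site of Gcn4, the activator of amino acid synthesis genes. Cells that lack Ade2 activity collect a red pigment from the intermediate before that step. In a culture, fewer expressing cells and less RNA per cell cannot be told apart.

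In pathway order, with coding coordinates in build R64 (sacCer3), ADE4 (YMR300C, chrXIII:865559-867091, minus strand) encodes the amidotransferase of the committed step. ADE5,7 (YGL234W, chrVII:56482-58890, plus strand) encodes a protein with the activities of both the GAR and the AIR synthetase. ADE8 (YDR408C, chrIV:1288215-1288859, minus strand) encodes the GAR transformylase, and ADE6 (YGR061C, chrVII:611889-615965, minus strand) the FGAM synthetase. ADE2 (YOR128C, chrXV:564476-566191, minus strand) encodes the AIR carboxylase and ADE1 (YAR015W, chrI:169375-170295, plus strand) the SAICAR synthetase. ADE13 (YLR359W, chrXII:844282-845730, plus strand) encodes adenylosuccinate lyase, which acts both on the way to IMP and on the way to AMP. ADE16 (YLR028C, chrXII:199540-201315, minus strand) and ADE17 (YMR120C, chrXIII:507502-509280, minus strand) encode 2 isozymes that carry out the last steps to IMP. ADE12 (YNL220W, chrXIV:234413-235714, plus strand) encodes adenylosuccinate synthase, the entry to AMP. Each has 1 coding segment, and none overlaps another annotated protein-coding gene.

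The Bas1 core was searched on both strands, as TGACTC or its reverse complement GAGTCA, in the 500 bases before each start codon of the RefSeq R64 genome. It was present before 9 of the 10 ADE genes and before 12.7% of 6000 protein-coding genes. At least 2 matches stood before 6 of the 10, and before 1.43% of the 6000. ADE16 was the exception. The windows of ADE4, ADE6, ADE13 and ADE17 also take in part of a neighbouring coding gene. The stretches below are shown because ADE17 and ADE16, the isozyme pair, differ in these letters and in their RNA. ADE1, ADE2 and ADE8 are shown because they fell in all 3 comparisons with WT described later, and ADE5,7 because it passed in none. ADE12 also fell in all 3 but is not shown. Its 2 matches are on the opposite strand, 452 and 217 bases before the start codon. The stretches run 5′ to 3′ on the coding strand, with matches in capitals. ADE17 is from chrXIII:509437-509602 (minus strand), ADE16 from chrXII:201416-201615 (minus), ADE1 from chrI:169134-169178 (plus), ADE2 from chrXV:566324-566402 (minus), ADE8 from chrIV:1289006-1289055 (minus) and ADE5,7 from chrVII:56250-56318 (plus).
ADE17: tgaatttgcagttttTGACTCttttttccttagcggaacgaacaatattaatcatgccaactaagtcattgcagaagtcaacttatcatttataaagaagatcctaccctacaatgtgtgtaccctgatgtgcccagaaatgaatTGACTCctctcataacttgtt
ADE16: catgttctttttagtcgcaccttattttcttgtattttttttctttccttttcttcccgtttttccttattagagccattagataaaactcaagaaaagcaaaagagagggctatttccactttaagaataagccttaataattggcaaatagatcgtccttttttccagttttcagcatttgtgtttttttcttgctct
ADE1: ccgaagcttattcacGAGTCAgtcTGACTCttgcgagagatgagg
ADE2: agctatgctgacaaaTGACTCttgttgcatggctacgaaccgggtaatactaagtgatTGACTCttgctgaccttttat
ADE8: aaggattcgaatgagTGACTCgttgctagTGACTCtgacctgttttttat
ADE5,7: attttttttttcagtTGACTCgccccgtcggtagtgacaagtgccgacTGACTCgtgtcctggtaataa
A match describes letters only, and the lack of one in the ADE16 window says only that these letters are not there.

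**Figure D1:**
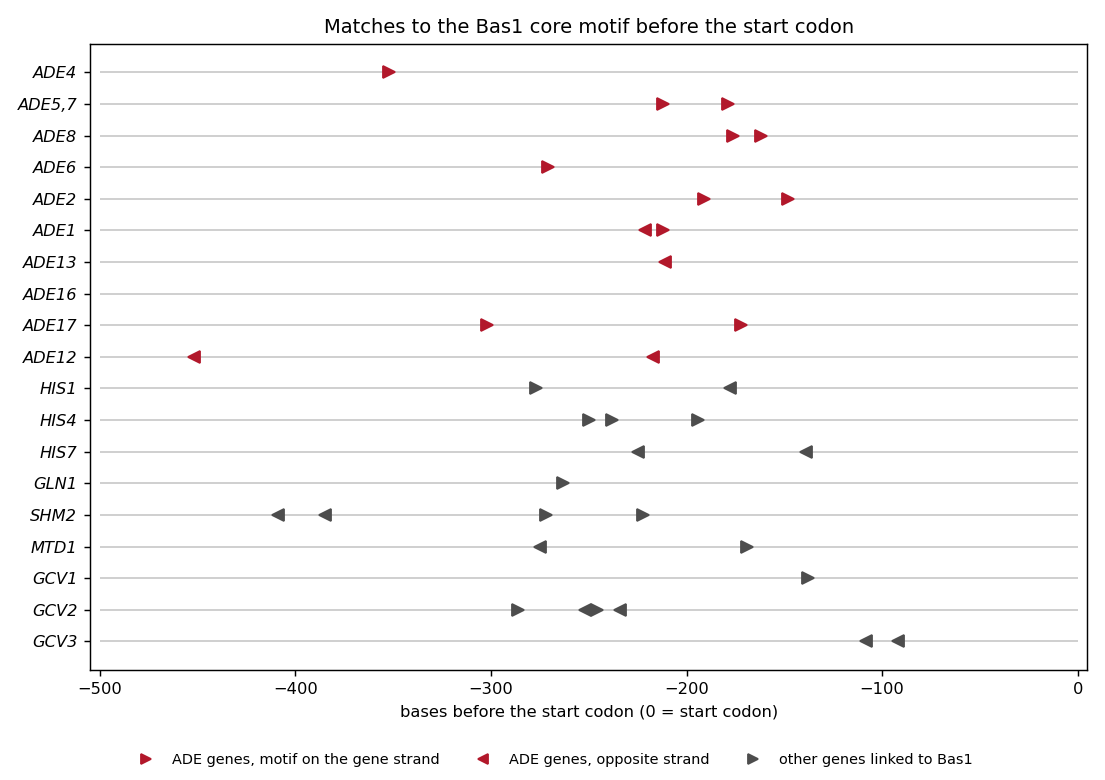
Positions of the Bas1 core motif in the 500 bases before the start codon (x axis, bases, with the start codon at 0) of the 10 ADE genes in red and 9 other genes linked to Bas1 in grey. Arrowheads point right for a match on the gene's strand and left for the opposite strand. The ADE16 line is empty and each of the other 18 lines holds at least 1 match.

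Expression was measured as RPKM, the reads per kilobase of gene relative to all reads of the library, further divided by a scale factor per library (scaled RPKM below). The reads behind a library ranged from 8089179 to 14527280. The least-read member, ADE2, still had 56 reads in its lowest library, so all 10 genes passed the filter of a mean of at least 1 scaled RPKM, as did 5951 features in all. The 4 α-specific genes MF(ALPHA)1, MF(ALPHA)2, STE3 and SAG1 were at 20.4 scaled RPKM or more in every library, and the 6 a-specific genes at 6.57 or less. MATα cells are known to express the first and to repress the second. All 4 α-specific genes were lower in every mutant-labelled library than in WT. MF(ALPHA)1 was at most 269.9 scaled RPKM there against at least 580.8 in WT, and MF(ALPHA)2 at most 42.4 against at least 124.6. The a-specific genes went both ways. Mean MFA1 was 3.92 to 5.42 in the mutant labels against 0.673 in WT, from at most 9 reads per library. Mean STE6 was 0.920 to 1.13 against 2.61. Whether these differences have a part in those of the ADE genes was not tested. Differences were tested with limma on log2(scaled RPKM + 1), with Benjamini-Hochberg adjustment over all 5951 features and a threshold of 0.05. Because of the added 1, a log2 difference understates the change of a low gene such as ADE2.

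WT replicate 1 stood apart from the other 2 WT libraries in these very genes. Its ADE RNA lay a median of 0.92 above their mean on the log2 scale, 9 of the 10 genes were higher there, and 7 were higher by more than 0.5, which held for 5.26% of all features tested. ADE17 and ADE1 were at places 5 and 6 of all 5951 features in that ranking, with differences of 1.56 and 1.56. ADE16 was the exception again, with -0.21. MTD1 and SHM2, enzymes of folate metabolism that are also known targets of Bas1, were at places 2 and 18. In the epl1Δ sds3Δ label, replicate 1 was likewise above its partners, by a median of 0.20, with 3 genes more than 0.5 higher. No other library had any ADE gene more than 0.5 above its partners. In the other direction, WT replicate 3 differed from its partners by a median of -0.57 (lowest -1.02), with 1 gene above 0. The mean of its partners includes WT replicate 1. The ADE differences from WT are therefore also given without WT replicate 1, and the WT libraries are shared by all 3 of those comparisons.

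**Figure D2:**
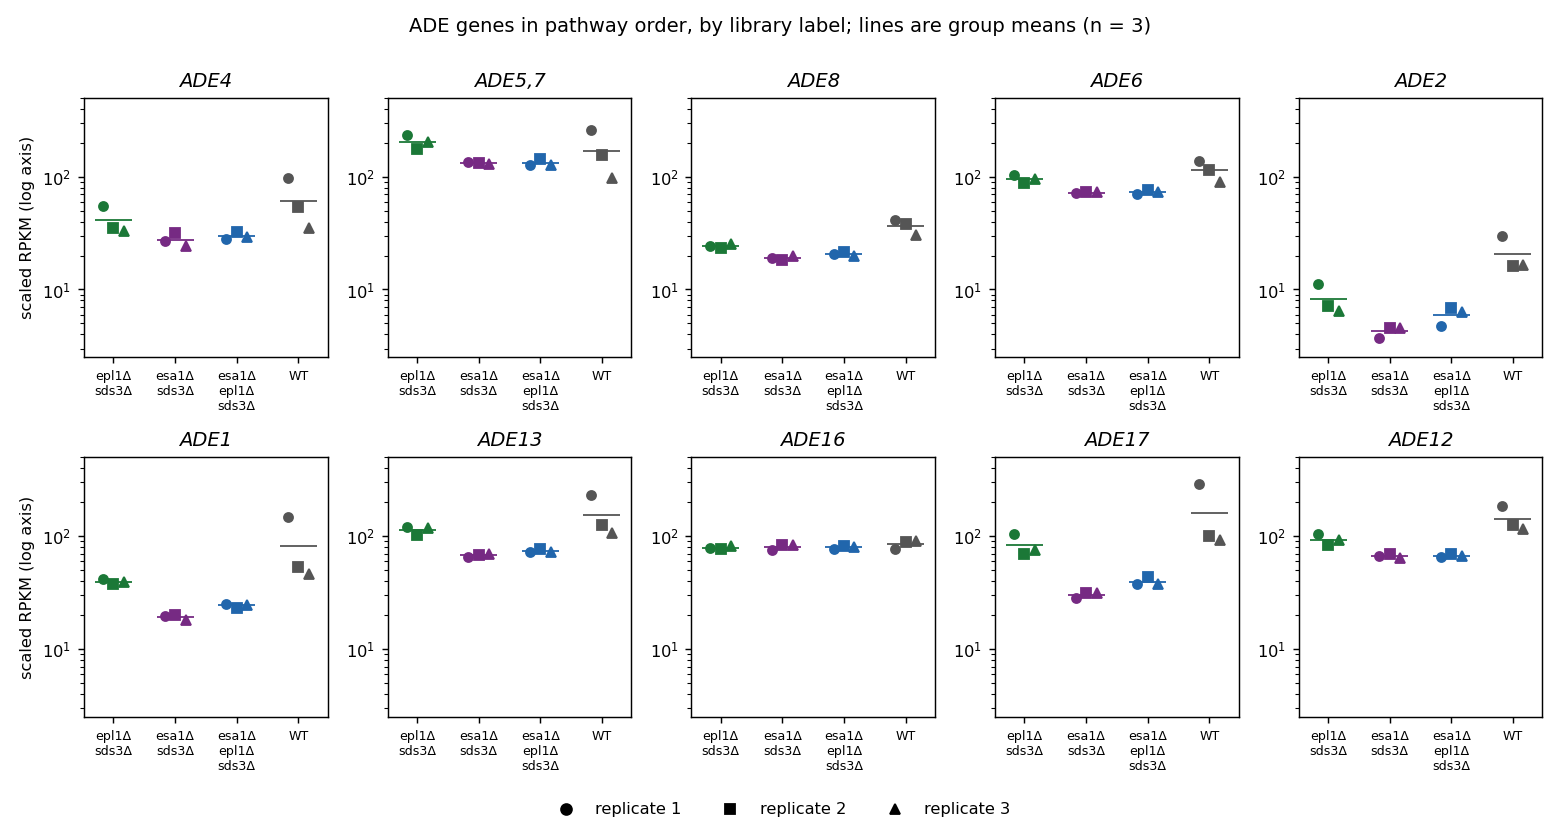
Scaled RPKM (log axis) of each ADE gene in each library, with panels in pathway order and columns for the 3 mutant labels and then WT. Symbols give the replicate number and lines the group mean of 3 libraries. WT replicate 1 is far above the other WT libraries for ADE17 and ADE1, while ADE16 lies between 75.2 and 89.8 in all 12 libraries.

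Against WT, ADE RNA was lower in the libraries labelled esa1Δ sds3Δ and esa1Δ epl1Δ sds3Δ for nearly the whole pathway. In the esa1Δ sds3Δ label 8 of 10 genes fell, where 29.7% of all features fell. In the esa1Δ epl1Δ sds3Δ label the same 8 fell, against a background of 29.3%. In the epl1Δ sds3Δ label 4 of 10 fell, ADE1, ADE2, ADE8 and ADE12. That is not far from the 29.9% of all features that fell there, so it does not show a fall of the pathway as a whole. No ADE gene rose in any of the 3. The median log2 difference over the 10 genes was -0.52 in the epl1Δ sds3Δ label, -1.03 in the esa1Δ sds3Δ label and -0.94 in the esa1Δ epl1Δ sds3Δ label, while the median of all features was within 0.01 of 0. Without WT replicate 1 these medians were -0.20, -0.78 and -0.66, and 4, 8 and 7 genes fell against 29.2%, 28.5% and 28.5% of features, with 1 rise (ADE5,7, epl1Δ sds3Δ label, where 29.7% of features rose). When WT replicate 3 was left out instead, 8 genes fell in the epl1Δ sds3Δ label, against 27.9%, with ADE4, ADE6, ADE13 and ADE17 added. With RPKM as deposited 9 fell in each label, but then 43.0%, 43.0% and 39.5% of features fell and 19.7%, 19.5% and 21.0% rose, in place of 29.9%, 29.7% and 29.3% that fell and 30.1%, 30.0% and 30.1% that rose. The summed level of the 10 genes was 701 to 878 scaled RPKM in the epl1Δ sds3Δ label, 511 to 533 in the esa1Δ sds3Δ label, 528 to 574 in the esa1Δ epl1Δ sds3Δ label, and 1491, 869 and 720 in WT. Every sum of the esa1Δ sds3Δ and esa1Δ epl1Δ sds3Δ labels lay below all 3 WT sums, as did 1 of the 3 epl1Δ sds3Δ sums.

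At the committed step, ADE4 had 55.1, 34.8 and 33.2 scaled RPKM in the epl1Δ sds3Δ label, 26.7, 31.7 and 24.5 in the esa1Δ sds3Δ label, 27.9, 32.4 and 29.0 in the esa1Δ epl1Δ sds3Δ label, and 96.2, 53.3 and 34.7 in WT. The esa1Δ-labelled libraries all lay below WT, and those labelled epl1Δ sds3Δ overlapped it. The log2 difference was -1.01 ± 0.28 (SE; limma adjusted p = 0.00829) for esa1Δ sds3Δ and -0.90 ± 0.28 (adjusted p = 0.0154) for esa1Δ epl1Δ sds3Δ. For epl1Δ sds3Δ it was -0.48 (adjusted p = 0.157). Without WT replicate 1 the differences were -0.10 for epl1Δ sds3Δ, -0.63 for esa1Δ sds3Δ (adjusted p = 0.0266) and -0.52 for esa1Δ epl1Δ sds3Δ, which no longer passed (adjusted p = 0.0582).

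ADE5,7, the most abundant of the 10 per length in every group, did not follow the others. It had 234, 176 and 201 scaled RPKM in the epl1Δ sds3Δ label, 135, 133 and 128 in the esa1Δ sds3Δ label, 127, 142 and 127 in the esa1Δ epl1Δ sds3Δ label, and 258, 154 and 98.03 in WT. The WT libraries alone spanned 2.63-fold, and every mutant-labelled value lay within that span. None of the differences passed the test, at 0.36 for epl1Δ sds3Δ (adjusted p = 0.225), -0.25 for esa1Δ sds3Δ (adjusted p = 0.399) and -0.25 for esa1Δ epl1Δ sds3Δ (adjusted p = 0.396). With WT replicate 1 left out the values were 0.71, 0.10 and 0.10, and that of epl1Δ sds3Δ passed as a rise (adjusted p = 0.00350). With WT replicate 3 left out, both esa1Δ labels passed as a fall, at -0.59 (adjusted p = 0.0143 and 0.0139). The sign of ADE5,7 in both esa1Δ labels thus depends on which WT libraries are used, while in the epl1Δ sds3Δ label it was positive in every alternative fit, at 0.02 to 0.71.

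ADE8 and ADE6, which act in turn after it, were steadier in WT. ADE8 had 24.1, 23.5 and 25.4 scaled RPKM in the epl1Δ sds3Δ label, 19.0, 18.3 and 19.99 in the esa1Δ sds3Δ label, 20.5, 21.5 and 19.9 in the esa1Δ epl1Δ sds3Δ label, and 41.4, 37.6 and 30.2 in WT. No mutant-labelled library reached the lowest WT library. The log2 differences were -0.55 ± 0.11 (SE; limma adjusted p = 0.000616), -0.89 ± 0.11 (1.56e-05) and -0.78 ± 0.11 (4.08e-05) in the order of these labels, and still passed without WT replicate 1, at -0.46, -0.79 and -0.68. ADE6 had 103, 87.8 and 95.2 scaled RPKM in the epl1Δ sds3Δ label, 70.9, 72.4 and 72.7 in the esa1Δ sds3Δ label, 70.5, 76.5 and 73.2 in the esa1Δ epl1Δ sds3Δ label, and 137, 115 and 89.1 in WT. It fell by 0.63 in the esa1Δ sds3Δ label (adjusted p = 0.00110) and by 0.60 in the esa1Δ epl1Δ sds3Δ label (adjusted p = 0.00148), and the epl1Δ sds3Δ libraries overlapped WT (-0.23, adjusted p = 0.139). Leaving out WT replicate 1 gave ADE6 -0.09 in the epl1Δ sds3Δ label, -0.49 in the esa1Δ sds3Δ label and -0.46 in the esa1Δ epl1Δ sds3Δ label, and the esa1Δ labels still passed.

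ADE2 was the lowest of the 10 per length in every group. It had 11.2, 7.13 and 6.46 scaled RPKM in the epl1Δ sds3Δ label, 3.71, 4.57 and 4.61 in the esa1Δ sds3Δ label, 4.79, 6.89 and 6.29 in the esa1Δ epl1Δ sds3Δ label, and 29.6, 16.0 and 16.5 in WT. Every mutant-labelled library was below every WT library. It fell in all 3 comparisons, by 1.21 ± 0.23 (SE; limma adjusted p = 0.000600), 1.99 ± 0.23 (1.22e-05) and 1.59 ± 0.23 (6.63e-05) on the log2 scale, and its mean was 39.9%, 20.7% and 28.9% of the WT mean. Leaving out WT replicate 1 gave shares of 50.8%, 26.4% and 36.9%, and all 3 differences still passed. This is the gene whose allele is given for WT and not for the mutant strains. The allele and the deletions thus cannot be told apart as sources of its difference. SAICAR and AICAR are made after the Ade2 step, so the same holds for the other ADE genes and those linked to Bas1.

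ADE1, the next enzyme, had 42.1, 37.9 and 38.9 scaled RPKM in the epl1Δ sds3Δ label, 19.7, 20.1 and 18.1 in the esa1Δ sds3Δ label, 25.2, 23.1 and 24.7 in the esa1Δ epl1Δ sds3Δ label, and 147, 53.1 and 46.1 in WT. The groups did not overlap with WT. The log2 differences were -0.83 ± 0.30 (SE; limma adjusted p = 0.0301), -1.83 ± 0.30 (0.000213) and -1.51 ± 0.30 (0.000884). WT replicate 1 sets much of their size, since without it they were -0.31, -1.32 and -0.996, each still past the threshold. The epl1Δ sds3Δ call does not hold without any 1 of its own 3 libraries (adjusted p = 0.0503, 0.0742 and 0.0661) or with the 6 libraries of that comparison alone (0.0806).

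ADE13 and ADE12 act together in making AMP from IMP. ADE13 had 122, 103 and 117 scaled RPKM in the epl1Δ sds3Δ label, 65.5, 68.4 and 69.0 in the esa1Δ sds3Δ label, 72.0, 77.3 and 72.7 in the esa1Δ epl1Δ sds3Δ label, and 234, 125 and 108 in WT. It fell by 1.10 (adjusted p = 0.000598) in the esa1Δ sds3Δ label and by 0.98 (adjusted p = 0.00142) in the esa1Δ epl1Δ sds3Δ label. The epl1Δ sds3Δ libraries overlapped WT, with a difference of -0.36 (adjusted p = 0.150) that was -0.03 without WT replicate 1, where the esa1Δ sds3Δ and esa1Δ epl1Δ sds3Δ differences were -0.77 and -0.64 and still passed. ADE12 had 104, 84.4 and 92.1 scaled RPKM in the epl1Δ sds3Δ label, 66.4, 69.3 and 63.4 in the esa1Δ sds3Δ label, 64.9, 70.1 and 66.9 in the esa1Δ epl1Δ sds3Δ label, and 184, 126 and 115 in WT. All mutant-labelled libraries were below WT, and it fell by 0.57 (adjusted p = 0.00486), 1.05 (5.84e-05) and 1.03 (6.24e-05). The ADE12 differences without WT replicate 1 were -0.37, -0.85 and -0.83, each still past the threshold.

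The isozymes of the last steps to IMP parted. ADE17 had 105, 69.4 and 76.2 scaled RPKM in the epl1Δ sds3Δ label, 28.4, 31.2 and 31.1 in the esa1Δ sds3Δ label, 37.6, 43.1 and 37.8 in the esa1Δ epl1Δ sds3Δ label, and 287, 100.0 and 93.0 in WT. The esa1Δ-labelled libraries were far below WT, and the log2 differences there were the largest of the 10 genes: -2.16 ± 0.32 (SE; limma adjusted p = 9.10e-05) and, in the esa1Δ epl1Δ sds3Δ label, -1.79 ± 0.32 (0.000378). Leaving out WT replicate 1, they were -1.64 and -1.27, smaller than the ADE2 differences of -1.71 and -1.32. The epl1Δ sds3Δ libraries overlapped WT, with -0.75 (adjusted p = 0.0590), which passed at -0.98 (0.0303) without WT replicate 2 and at -1.04 (0.0156) without WT replicate 3, and was -0.23 (0.213) without WT replicate 1. ADE16 had 78.2, 77.5 and 82.2 scaled RPKM in the epl1Δ sds3Δ label, 75.2, 83.4 and 82.99 in the esa1Δ sds3Δ label, 77.6, 81.4 and 79.5 in the esa1Δ epl1Δ sds3Δ label, and 77.2, 88.6 and 89.8 in WT. All groups overlapped. Its differences of -0.10, -0.08 and -0.10 did not pass (SE 0.09; adjusted p 0.343, 0.457 and 0.364), nor did those of -0.17, -0.15 and -0.16 without WT replicate 1. With RPKM as deposited they were -0.35, -0.33 and -0.30 and passed, while the median of all features also moved, to -0.24, -0.24 and -0.18.

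ADE16 RNA was thus 2.59, 2.62 and 2.62 times that of ADE17 in the esa1Δ sds3Δ libraries and 2.04, 1.87 and 2.08 times in those labelled esa1Δ epl1Δ sds3Δ. In the epl1Δ sds3Δ libraries it was 0.746, 1.11 and 1.08 times, and in WT 0.271, 0.888 and 0.966 times. Both esa1Δ labels lay above all WT libraries. The mean log2 ratio differed from WT by 2.08 and 1.70 for the esa1Δ sds3Δ and esa1Δ epl1Δ sds3Δ labels, and by 0.65 for epl1Δ sds3Δ. An exact two-sided permutation test gave p = 0.1, 0.1 and 0.5 for these (0.15, 0.15 and 0.5 adjusted over the 3 comparisons), and 0.1 is the smallest that 3 against 3 libraries allow. When WT replicate 1 was left out the differences were 1.49, 1.10 and 0.06. The coding sequences are 1776 bases (ADE16) and 1779 bases (ADE17) long and 74.8% identical, with 19 bases as the longest shared run. None of the 1730 stretches of 50 bases in ADE17 occurs in ADE16.

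**Figure D3:**
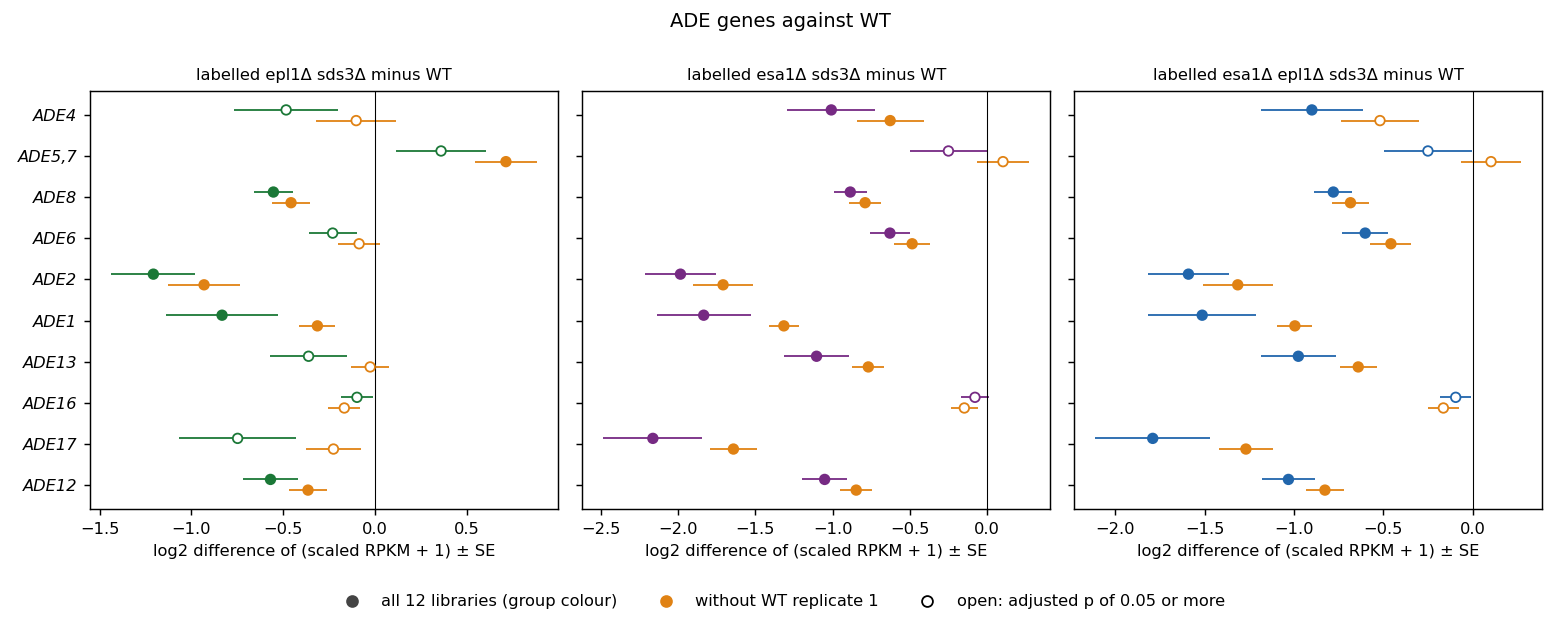
Log2 difference from WT (x axis, log2 of scaled RPKM + 1, with SE) of each ADE gene in 3 panels for the 3 mutant labels. The upper symbol uses all 12 libraries, the lower orange one leaves out WT replicate 1, and filled symbols passed an adjusted p of 0.05. ADE5,7 changes side in both esa1Δ panels when WT replicate 1 is left out, and ADE16 stays within 0.17 of 0 in every panel.

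The order of the 10 levels per length also differed. ADE5,7 was first and ADE2 last in every group. ADE16 was sixth in the epl1Δ sds3Δ label and in WT, but next to ADE5,7 in both esa1Δ labels, where its range did not overlap that of the gene on either side. ADE17 came after ADE5,7 in WT, at 160 ± 110 scaled RPKM (SD, n = 3), but at 96.5, behind ADE12, ADE13 and ADE6 too, without WT replicate 1. It was sixth at 30.2 ± 1.6 in the esa1Δ sds3Δ label and 39.5 ± 3.1 in the esa1Δ epl1Δ sds3Δ label. In WT every neighbouring pair in the order overlapped except ADE8 and ADE2, so the WT order is loose. In the esa1Δ sds3Δ label ADE6 (72.0 ± 1.0), ADE13 (67.6 ± 1.8) and ADE12 (66.4 ± 3.0) sat close together, with ADE13 and ADE12 overlapping.

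Between the mutant labels, most ADE genes were lower where ESA1 is labelled as deleted than where only EPL1 and SDS3 are. Both esa1Δ labels also carry HIS3, which the epl1Δ sds3Δ label does not name. The share of HIS3 in these differences was not tested and cannot be told apart from that of ESA1 loss. The esa1Δ sds3Δ and epl1Δ sds3Δ labels also differ in EPL1, which only the second names as deleted. The ADE2 allele is not stated for any mutant strain, so whether it differs between them is not known. Its share was not tested and cannot be told apart either. In every library labelled esa1Δ sds3Δ, 9 of the 10 genes, all but ADE16, were lower than in every epl1Δ sds3Δ library, which held for 5.36% of features. For esa1Δ epl1Δ sds3Δ against epl1Δ sds3Δ it was 8 of the 10, all but ADE2 and ADE16, and 10% of features. The median log2 difference of the 10 was -0.57 for esa1Δ sds3Δ against epl1Δ sds3Δ and -0.44 for esa1Δ epl1Δ sds3Δ against epl1Δ sds3Δ. The largest was that of ADE17, at -1.41 and -1.04, followed by ADE1, at -1.001 and -0.68.

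With the spread estimated from all 12 libraries, limma called 0 of the 10 genes in either comparison, where 0.185% and 0.134% of features were called. At an unadjusted p under 0.05 there were 8 and 6 of the 10, against 4.74% and 6.50% of features, and voom on recovered reads called 1 (ADE17, adjusted p = 0.0188, where 0.108% were lower) and 0. That spread includes WT replicate 1. With the 9 mutant-labelled libraries alone, a choice made after the spread in WT had been seen, 5 genes were lower in esa1Δ sds3Δ than in epl1Δ sds3Δ, against 0.218% of features. These were ADE17 (-1.41 ± 0.13, SE; limma adjusted p = 0.000756), ADE1 (-1.001 ± 0.08; 0.000125), ADE13 (-0.74 ± 0.08; 0.00138), ADE5,7 (-0.61 ± 0.10; 0.0282) and ADE12 (-0.48 ± 0.08; 0.0457). For esa1Δ epl1Δ sds3Δ against epl1Δ sds3Δ they were ADE17 (-1.04; 0.0112), ADE1 (-0.68; 0.00438), ADE13 (-0.61; 0.0104) and ADE5,7 (-0.61; 0.0349), against 0.269% of features. Leaving out 1 of the 6 libraries compared left 3 to 5 and 1 to 5 calls, and for esa1Δ epl1Δ sds3Δ the 1 call was reached without its replicate 1 and without its replicate 3. ADE1, ADE13 and ADE17 were also lower in both comparisons with the 6 libraries alone, where 0.118% and 0.168% of features were lower, and with the spread estimated without WT replicate 1, where 0.185% were lower in each. The call of ADE genes between these labels therefore rests on which libraries set the spread. For ADE17 in esa1Δ sds3Δ against epl1Δ sds3Δ it also rests on the test. The log2 differences do not depend on which libraries set the spread.

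The labels esa1Δ epl1Δ sds3Δ and esa1Δ sds3Δ were closest. The median log2 difference was 0.11, and limma called 0 of the 10 genes with 12 libraries (0.0504% of features) and with 9 (0.101%), and voom called 0. At an unadjusted p under 0.05 there were 0 with 12 libraries, and 2 with 9, where 11.5% of features were. ADE1, ADE2, ADE13 and ADE17 were higher in all 3 esa1Δ epl1Δ sds3Δ libraries than in all 3 esa1Δ sds3Δ libraries, which held for 8.89% of features. ADE2 had the largest difference, 0.39 ± 0.23 (SE; limma adjusted p = 0.773).

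**Figure D4:**
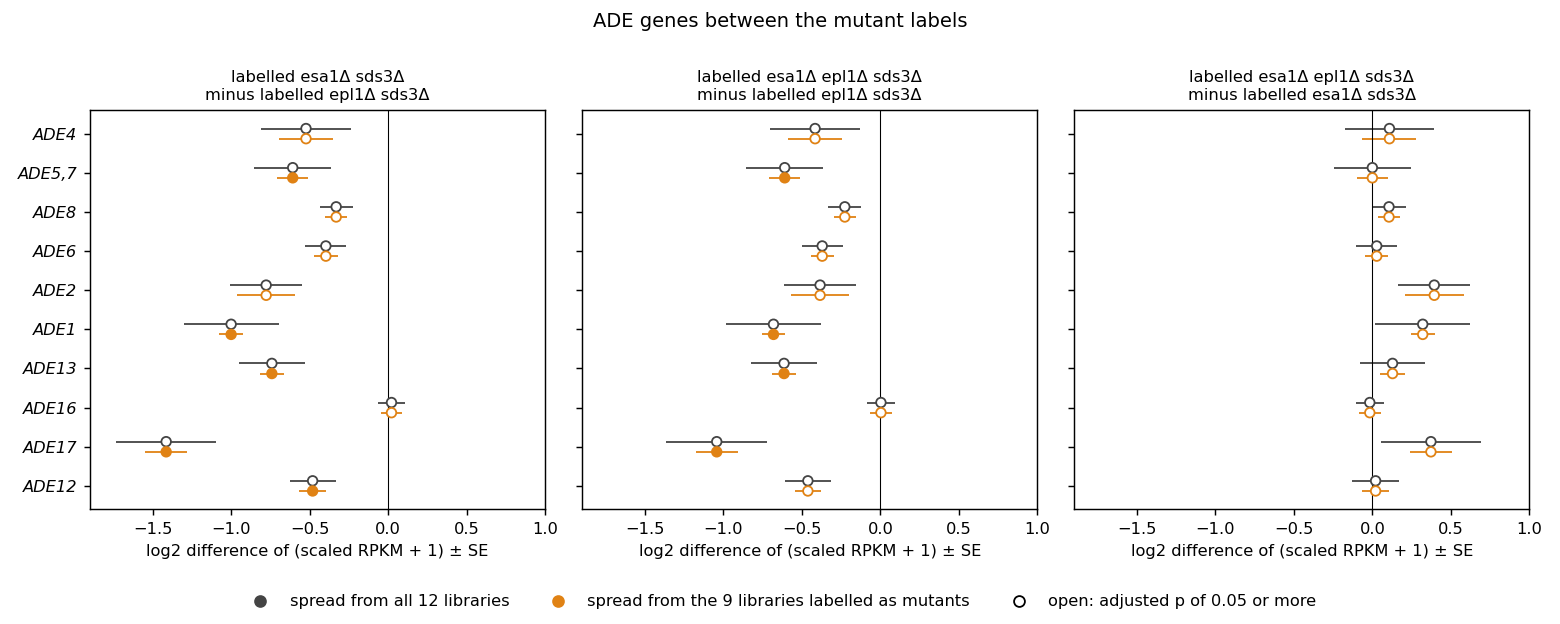
Log2 difference between mutant labels (x axis, log2 of scaled RPKM + 1, with SE) of each ADE gene in 3 panels. Dark symbols use the spread of all 12 libraries and orange symbols that of the 9 mutant-labelled libraries, and filled symbols passed an adjusted p of 0.05. The values are the same in both, ADE17 lies farthest from 0 in the left and middle panels, and filled symbols are orange only.

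Of the regulators, BAS1 RNA rose in the epl1Δ sds3Δ label (0.47 ± 0.16, SE; limma adjusted p = 0.0200) and the esa1Δ epl1Δ sds3Δ label (0.56 ± 0.16; 0.00780), with 0.33 ± 0.16 (0.0877) in the esa1Δ sds3Δ label, which passed at 0.50 (0.00954) without WT replicate 1. Its means were 6.17 scaled RPKM in the epl1Δ sds3Δ label, 5.53 in the esa1Δ sds3Δ label and 6.61 in the esa1Δ epl1Δ sds3Δ label, against 4.25 in WT. PHO2, the partner of Bas1, differed by -0.12 in the epl1Δ sds3Δ label, -0.14 in the esa1Δ sds3Δ label and 0.01 in the esa1Δ epl1Δ sds3Δ label and did not pass. GCN4 RNA rose by 0.39 (adjusted p = 0.00616) in the epl1Δ sds3Δ label and 0.43 (0.00335) in the esa1Δ sds3Δ label, with 0.24 (0.0599) in the esa1Δ epl1Δ sds3Δ label. With RPKM as deposited none of these rises passed: BAS1 differed by 0.25, 0.11 and 0.39 (adjusted p 0.273, 0.623 and 0.1002) and GCN4 by 0.13, 0.18 and 0.04 (0.137, 0.0517 and 0.668) in the epl1Δ sds3Δ label, the esa1Δ sds3Δ label and the esa1Δ epl1Δ sds3Δ label.

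Of 9 other genes linked to Bas1, 4 fell in the epl1Δ sds3Δ label, 5 in the esa1Δ sds3Δ label and 5 in the esa1Δ epl1Δ sds3Δ label, and none rose, against 29.9%, 29.7% and 29.3% of all features that fell and 30.1%, 30.0% and 30.1% that rose. All 9 held the motif in their window, 7 of them at least 2 times. GCV1, GCV2 and GCV3, subunits of the mitochondrial glycine cleavage system, fell most. GCV1 was at 10.5, 6.05 and 5.52 scaled RPKM in the epl1Δ sds3Δ label, the esa1Δ sds3Δ label and the esa1Δ epl1Δ sds3Δ label, against 40.4 in WT, with log2 differences of -1.80, -2.50 and -2.62 (adjusted p 4.87e-06, 3.56e-07 and 2.30e-07). GLN1, glutamine synthetase, which makes a nitrogen donor of purine synthesis, fell by 0.62, 0.77 and 0.74 (0.00397, 0.000894 and 0.00125). The histidine genes HIS1, HIS4 and HIS7, whose pathway releases AICAR as a by-product, differed by no more than 0.29 in either direction and did not pass. Without WT replicate 1 HIS4, HIS7 and MTD1 passed as a rise in the epl1Δ sds3Δ label, at 0.32 (0.0364), 0.42 (0.0197) and 0.92 (0.000687).

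Genes of folate and one-carbon metabolism rose and fell. One-carbon units on folate are needed at 2 steps of the ring, but not every gene on the list supplies them. Of 16 on that list, which shares GCV1, GCV2, GCV3, SHM2 and MTD1 with the list before, 8, 9 and 10 fell and 2 rose in the epl1Δ sds3Δ label, the esa1Δ sds3Δ label and the esa1Δ epl1Δ sds3Δ label, with medians of -0.52, -0.68 and -0.62. Of all features 29.9%, 29.7% and 29.3% fell and 30.1%, 30.0% and 30.1% rose. The medians without WT replicate 1 were -0.31, -0.52 and -0.64, and 3, 2 and 1 of the 16 rose. Of the 5951 features, 1768, 1734 and 1716 rose there. LPD1, shared by glycine cleavage and the pyruvate and 2-oxoglutarate dehydrogenases, fell by 0.97, 0.96 and 0.99 (limma adjusted p 2.87e-06, 3.03e-06 and 2.13e-06). Of 5 genes for PRPP synthetase subunits, PRS4 alone passed, with rises of 0.66, 0.67 and 0.70 (0.000243, 0.000233 and 0.000144). With all 12 libraries, 30.1%, 30.0% and 30.1% of all features rose.

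In the branch from IMP to GMP, 2 of 5 genes rose in each label, and 1, 2 and 2 fell, where 30.1%, 30.0% and 30.1% of all features rose and 29.9%, 29.7% and 29.3% fell. IMD2, 1 of the IMP dehydrogenase genes, had means of 1.94, 1.74 and 1.14 scaled RPKM in the epl1Δ sds3Δ label, the esa1Δ sds3Δ label and the esa1Δ epl1Δ sds3Δ label, against 47.0 in WT, and fell, with log2 differences of -3.91, -4.05 and -4.37 (limma adjusted p 7.82e-07, 6.17e-07 and 3.10e-07). IMD4, another copy, rose by 1.08, 1.04 and 0.85 (2.86e-05, 3.80e-05 and 0.000185). GUA1, GMP synthetase, rose by 1.23, 1.05 and 1.00 (6.66e-05, 0.000228 and 0.000336). IMD3 fell in the esa1Δ sds3Δ label (-0.53, 0.0164, but -0.31 and 0.0640 without WT replicate 1) and in the esa1Δ epl1Δ sds3Δ label (-0.65, 0.00511), with -0.35 (0.0963) in the epl1Δ sds3Δ label. The IMD genes are close copies, and how reads shared between them were counted is not given in the sources used here, so their values are uncertain.

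Salvage genes, which recover bases already made, rose and fell. Of 11 genes 5 rose in each label, where 30.1%, 30.0% and 30.1% of all features rose, and 4, 2 and 3 fell, where 29.9%, 29.7% and 29.3% did. AAH1, adenine deaminase, had means of 46.5, 43.2 and 37.6 scaled RPKM in the epl1Δ sds3Δ label, the esa1Δ sds3Δ label and the esa1Δ epl1Δ sds3Δ label, against 18.4 in WT, and rose by 1.34, 1.24 and 1.05 (limma adjusted p 0.000163, 0.000287 and 0.000964). APT2, related to adenine phosphoribosyltransferase, rose by 0.74, 0.73 and 0.68 (6.76e-05, 7.29e-05 and 0.000120), and MEU1, methylthioadenosine phosphorylase, by 0.88, 0.84 and 0.77 (5.56e-05, 8.66e-05 and 0.000158). GUD1, guanine deaminase, fell by 0.46, 0.57 and 0.51 (0.00144, 0.000291 and 0.000738). Among 4 genes for uptake, the vacuolar nucleoside transporter gene FUN26 fell in all 3 labels, by 0.78, 0.80 and 0.89 (0.000106, 8.51e-05 and 3.53e-05). FCY21 and FCY22, relatives of FCY2, passed as rises in the esa1Δ sds3Δ label, at 0.28 (0.0298) and 0.58 (0.0455). Neither passed with RPKM as deposited (0.03 and 0.48), and FCY22 did not pass without WT replicate 1 (0.44, 0.158). FCY2, the main purine and cytosine permease, did not pass with all 12 libraries (0.33, 0.06 and -0.06), and without WT replicate 1 it rose in the epl1Δ sds3Δ label (0.56, 0.00944). Both genes on the kinase list, ADK1 and YNK1, differed by at most 0.11 and did not pass.

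**Figure D5:**
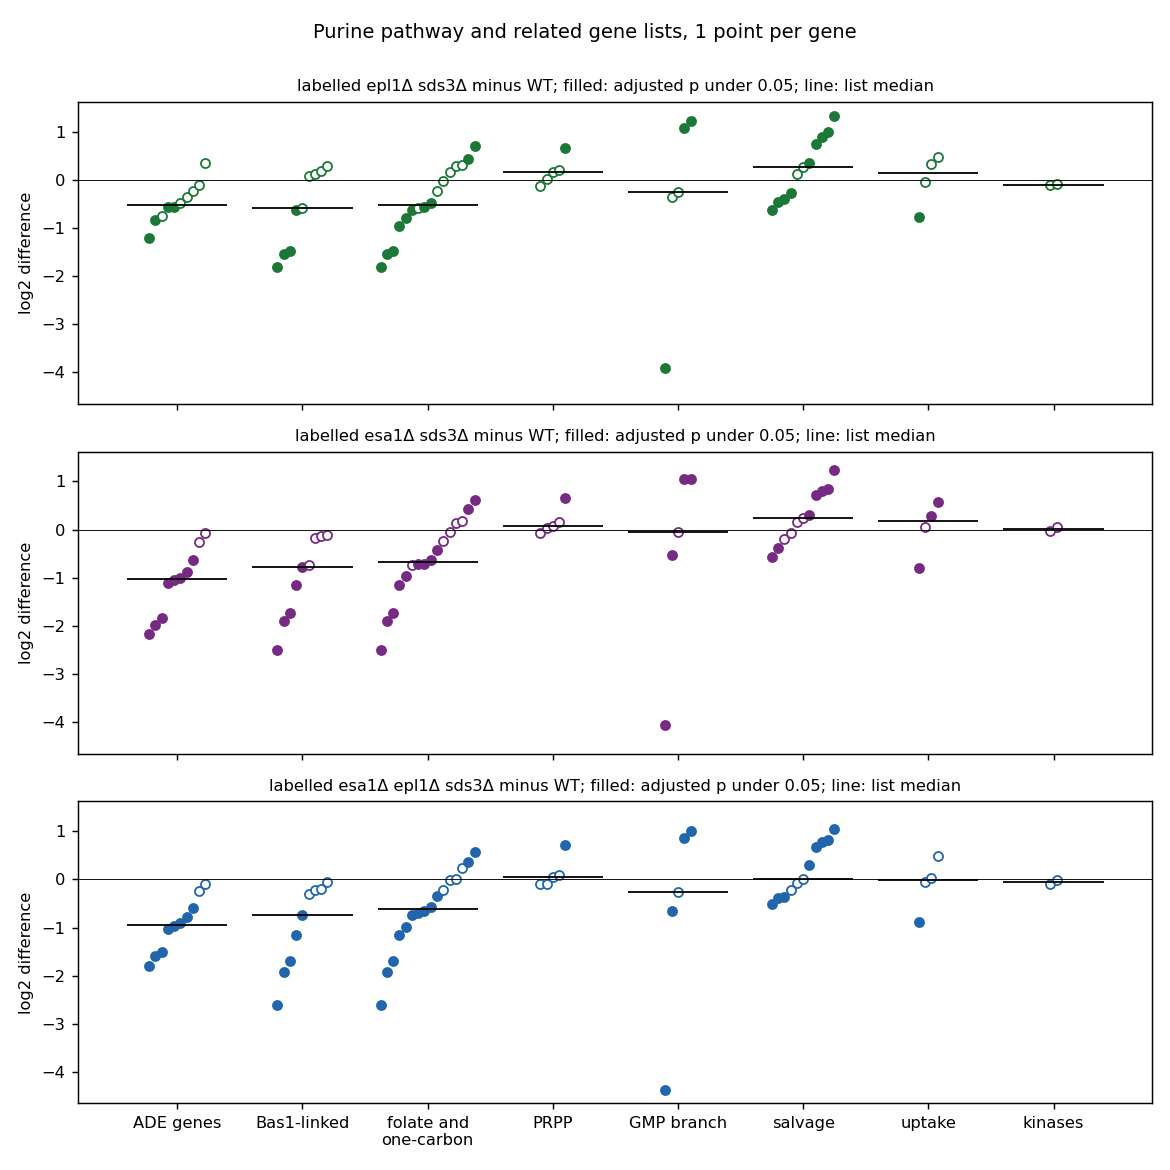
Log2 difference from WT (y axis, log2 of scaled RPKM + 1) of each gene on 8 lists, in 3 panels for the 3 mutant labels. Each point is 1 gene, filled where the adjusted p was under 0.05, and lines are list medians. IMD2 is the lowest point in each panel, and the ADE medians are -0.52, -1.03 and -0.94.

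The features most like the ADE genes were ranked by the correlation, over the 12 libraries, of log2(scaled RPKM + 1) with the mean standardised profile of the 10 genes. SHM2, cytosolic serine hydroxymethyltransferase, came first at r = 0.974, followed by TRP3 (0.960) and TRP4 (0.934) of tryptophan synthesis, TPN1, the pyridoxine transporter (0.945), GCV2 (0.938) and GLN1 (0.936). IMD3, CAN1, ADE3 and TIF35 completed the first 10, at 0.925 to 0.914. Without WT replicate 1 the r of these 10 was 0.821 to 0.965. SHM2 had 324, 231 and 286 scaled RPKM in the epl1Δ sds3Δ label, 172, 187 and 211 in the esa1Δ sds3Δ label, 168, 207 and 190 in the esa1Δ epl1Δ sds3Δ label, and 723, 340 and 298 in WT, the same high value in WT replicate 1 as ADE17 and ADE1. ADE2 alone was most like MCM7, a helicase subunit (r = 0.968), then GCV2 (0.960), CEM1 (0.956), TFC7 and CAN1 (0.952 each). These correlations describe 12 libraries that share their group differences.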

How the data were processed

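RNA of 12 libraries was analysed from the RPKM values the authors deposited, 1 table per library. Per the submitters' processing notes, cutadapt, STAR and Bowtie 0.12.2 were used with sacCer3 and mm8; the role of each, the counting program and its strand setting are not given in the sources used here. Each RPKM was divided by a median-of-ratios scale factor (0.914 to 1.22) and tested as log2(scaled RPKM + 1) in limma 3.58.1 (R 4.3.3) with 1 mean per group, a trended prior and Benjamini-Hochberg adjustment over 5951 features with a mean of at least 1. The recovered depth was 8089179 to 14527280 reads, from RPKM steps that gave whole reads within 0.01 read for 99.7104% to 99.7455% of values under 5000 reads. The p-values measure the spread between these libraries. The fit was tested on simulated data. Promoter letters and coordinates are from RefSeq R64, with features matched by locus tag. The 10 ADE genes and the lists were chosen with earlier results of these data known; up to 4 genes of a list with the smallest adjusted p are named, plus regulators, while MTD1, HIS1, HIS4 and HIS7 were named after their values were seen. Same-numbered libraries were taken as paired where all 3 correlations of their deviations were over 0.1, which held for esa1Δ sds3Δ against WT alone (0.119, 0.124 and 0.182) and comes from the values, not the labels. The main fits, in that comparison too, hold no replicate block, which was an alternative only. Alternatives changed the scaling, pseudocount, filter, libraries in the fit, block and test.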

Additional observations from a re-analysis of the deposited data

How the results depend on the processing

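The number of ADE genes called stayed within 1.5 times of that reported under the scalings, pseudocounts, filters, libraries, block and voom tried, except as follows. For epl1Δ sds3Δ against WT it was 9 with RPKM as deposited and 3 to 8 when 1 library was left out, in place of 4. For esa1Δ sds3Δ against epl1Δ sds3Δ it was 3 with the 6 libraries compared, 1 with voom, 5 with the 9 mutant-labelled libraries (3 to 5 when 1 of these was left out) and 3 with the spread estimated without WT replicate 1, in place of 0. For esa1Δ epl1Δ sds3Δ against epl1Δ sds3Δ it was 3 with the 6 libraries compared, 4 with the 9 (1 to 5 when 1 was left out) and 3 with the spread estimated without WT replicate 1, in place of 0. The last 2 settings were chosen after seeing the data. With the replicate number as a block the counts were 5, 8 and 8 against WT and 0 in the 3 pairs of mutant labels. In the comparison taken as paired no call changed, and elsewhere only ADE17 in the epl1Δ sds3Δ label did (adjusted p = 0.0400).

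With quantile normalization ADE1 lost its call in the epl1Δ sds3Δ label (adjusted p = 0.05003). ADE2 was not tested with a mean of at least 10. Differences that changed sign were not called, save those of ADE5,7 against WT, which ran from -0.59 to 0.10 in both esa1Δ labels when 1 library was left out. Between esa1Δ epl1Δ sds3Δ and esa1Δ sds3Δ, ADE5,7 was 0.048 with RPKM as deposited, 0.0995 with equal protein-coding totals, 0.085 with quantile normalization, 0.00123 with voom and -0.054 to 0.026 when 1 library was left out. ADE16 was 0.032, 0.083 and 0.0503 under the first 3 of these settings and -0.065 to 0.0090 when 1 library was left out. With 1 library left out ADE6 was -0.0029 to 0.056 and ADE12 -0.012 to 0.051. Between esa1Δ sds3Δ and epl1Δ sds3Δ, ADE16 was -0.00328 with equal protein-coding totals, -0.022 with quantile normalization and -0.0055 to 0.069 when 1 library was left out. Between esa1Δ epl1Δ sds3Δ and epl1Δ sds3Δ it was -0.013 to 0.030 when 1 library was left out. The causes were not tested. Groups of 3 libraries and 56 reads for ADE2 in its lowest library limit the precision.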
